A study of Mus musculus with 4 samples.

Results

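The genes that write, copy and erase DNA methylation were examined as a set of 10: the DNA methyltransferases Dnmt1, Dnmt3a, Dnmt3b and Dnmt3l, the cofactors Uhrf1 and Uhrf2, the oxidases Tet1, Tet2 and Tet3, and the DNA glycosylase Tdg. They were chosen by symbol for their roles in this pathway, and all 10 were found among the 49997 rows of the count table. RNA-seq was performed in E14 mouse embryonic stem cells (ESCs), a pluripotent line from the early mouse embryo, to examine how depletion of the m6A reader YTHDF2 alters the transcriptome. The design held 2 libraries from cells with a scrambled short hairpin RNA (shScramble) and 2 from cells with a hairpin against Ythdf2 (shYthdf2). Both groups were stable, puromycin-selected lines made with lentivirus, grown without feeder cells on gelatin with serum replacement and leukemia inhibitory factor, and the study's methods give the parental cells as carrying a tdTomato reporter driven by the MERVL promoter. The study lists a pair of hairpins against Ythdf2, and the labels name neither for these libraries. The methods call the replicates independent, but do not say whether they were separate infections or separate cultures of one line.

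In mammals, methylation sits mainly on the cytosine of CG pairs. DNMT1 copies it to the new strand after replication, guided by UHRF1, which recognizes CG pairs methylated on the old strand alone, whereas DNMT3A and DNMT3B place it on unmethylated DNA with the help of DNMT3L, which has no catalytic activity of its own. TET enzymes oxidize methylcytosine stepwise and TDG excises the most oxidized forms for repair, and mouse ESCs are known for high levels of both branches and for their ability to survive without methylation. DNA methylation, protein and m6A on these transcripts were not measured in the libraries analysed here, so every value is a transcript level.

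The coding bases that separate the catalytic methyltransferases from DNMT3L are shown first. In the longest protein-coding transcripts of the GENCODE M21 annotation (GRCm38, the assembly called mm10), the translated frames were searched for glycine-glycine, a proline or serine, proline, cysteine, then asparagine or glutamine, the loop that holds the catalytic cysteine. Dnmt1, Dnmt3a and Dnmt3b each held 1 match and Dnmt3l held 0, which says only that these letters are not in its frame of 421 codons. Each stretch below runs 5′ to 3′ on the coding strand, with the cysteine codon in capitals, codon 1110 of 1501 in Dnmt1, codon 706 of 908 in Dnmt3a and codon 657 of 859 in Dnmt3b. A longer somatic form of DNMT1 is known, so the Dnmt1 numbers hold for this frame alone.
Dnmt1: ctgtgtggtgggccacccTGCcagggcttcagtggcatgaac
Dnmt3a: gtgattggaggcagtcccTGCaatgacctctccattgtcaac
Dnmt3b: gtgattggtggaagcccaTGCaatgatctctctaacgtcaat
Over the aligned part of their frames, Dnmt3a and Dnmt3b were identical at 56.4% of 750 codon positions as amino acids, and Dnmt3a and Dnmt3l at 42.3% of 312. The paralogs Uhrf1 and Uhrf2 were identical at 56.4% of 763 positions, and the 3 pairs of Tet genes at 37.6% to 43.0%.

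Promoters are shown for Uhrf2, the only member whose transcript passed the test described below, and for Dnmt3l, whose windows held few CG pairs. RefSeq promoter windows of 300 bases (250 before and 50 after a start, GRCm38.p6) matched all 10 members with 17 windows. The bases before the first counted exon are printed 5′ to 3′ on the plus strand, with CG in capitals.
Uhrf2 upstream, chr19:30030263-30030429: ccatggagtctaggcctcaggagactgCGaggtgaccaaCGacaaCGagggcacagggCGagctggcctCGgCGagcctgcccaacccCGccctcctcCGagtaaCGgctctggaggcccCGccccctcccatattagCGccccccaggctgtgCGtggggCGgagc
Dnmt3l upstream, chr10:78042037-78042286: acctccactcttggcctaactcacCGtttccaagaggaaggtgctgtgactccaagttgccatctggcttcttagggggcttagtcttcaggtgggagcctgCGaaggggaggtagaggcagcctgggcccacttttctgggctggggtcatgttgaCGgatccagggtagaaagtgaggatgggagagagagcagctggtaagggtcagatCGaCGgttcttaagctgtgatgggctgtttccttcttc
The whole Uhrf2 window held 28 CG pairs, more than 85.8% of the 32851 windows in the table, of which 94.6% held at least 1 and whose median was 7. The 3 Dnmt3l windows held 6, 4 and 3. Of the other members, Tet2 had the densest window, with 57, and Dnmt1 ranged from 2 to 33 over 3 windows. Dnmt3b had a window with 30, and Dnmt3a had windows with 46, 47 and 18. For 8 of the 10 members every window was above the median of all windows. The GC box GGGCGG, searched on both strands, was in 13 of the 17 member windows and in 35.7% of all windows, and it can share its central CG with the count above. A match is a description of the sequence and not a binding site.

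The knockdown was read from the targeted gene. Ythdf2, the cytoplasmic m6A reader that promotes decay of bound mRNAs, stood at 93.4 and 87.6 CPM (reads scaled to the size of the library) in shScramble and at 31.8 and 30.2 CPM in shYthdf2. The log2 fold change was -1.55 (SE 0.11, edgeR adjusted p = 0.00069), or 34.2% of control. Libraries held 31113006 to 36422510 counted reads, and the 10 members took 0.249% to 0.299% of them. Naive ESC markers summed to 5221 to 5796 CPM in every library over 8 genes, whereas primitive endoderm markers summed to 6.68 to 11.1 CPM over 5 genes and fibroblast markers to 9.54 to 17.9 CPM over 6, with Dcn at 0 in all 4. Formative markers other than Dnmt3b summed to 61.1 to 73.8 CPM over 5 genes. Within these sums Sall2, a formative marker, passed as higher, at 3.61 and 4.57 CPM in shScramble and 7.72 and 13.8 CPM in shYthdf2 (edgeR adjusted p = 0.037), and the naive marker Nanog stood at 75.3% of control without passing (edgeR adjusted p = 0.059). The other formative markers tested, Otx2 at 0.06, Dusp6 at -0.05 and Pou3f1 at -0.21 as log2 fold changes, did not pass. The other naive markers ranged from -0.17 (Sox2) to 0.13 (Pou5f1) and did not pass either. Markers of the 2C-like state, in which a few ESCs resemble the 2-cell embryo, summed over 9 genes to 34.0 and 56.1 CPM in shScramble and to 79.9 and 236 CPM in shYthdf2 replicates 1 and 2, and Zscan4a, Usp17la and Gm4340 passed the test. The part that this shift has in the values below was not tested, and in bulk RNA a smaller share of cells expressing a gene and less RNA per cell cannot be told apart.

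The quasi-likelihood test of edgeR, adjusted by Benjamini-Hochberg over 18341 sufficiently counted genes, all 10 members among them, called 1 member lower and 0 higher in shYthdf2 at an adjusted p under 0.05. Across all genes tested, 3.91% passed in either direction and 1.49% passed as lower. At an unadjusted p under 0.05, Uhrf2 and Tet3 were lower and 0 members were higher. Across all genes, 9.8% were lower and 20.8% passed in either direction. DESeq2 made the same call for Uhrf2 alone (adjusted p = 0.0036) and called 0 higher, where 8.9% of genes with an adjusted p were called. At the study's own criteria in DESeq2, an unadjusted p no higher than 0.05 and a log2 change of 1 or more in size, 0 members passed, against 2.88% of genes. For 8 members the 2 groups did not overlap, 7 of them lower and 1 higher in shYthdf2. Of all genes tested, 51.8% did not overlap in either direction and 25.5% were lower without overlap. The median log2 fold change of the members was -0.15, with a range of -0.50 to 0.27, and that of all genes tested was 0.0019.

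**Figure D1:**
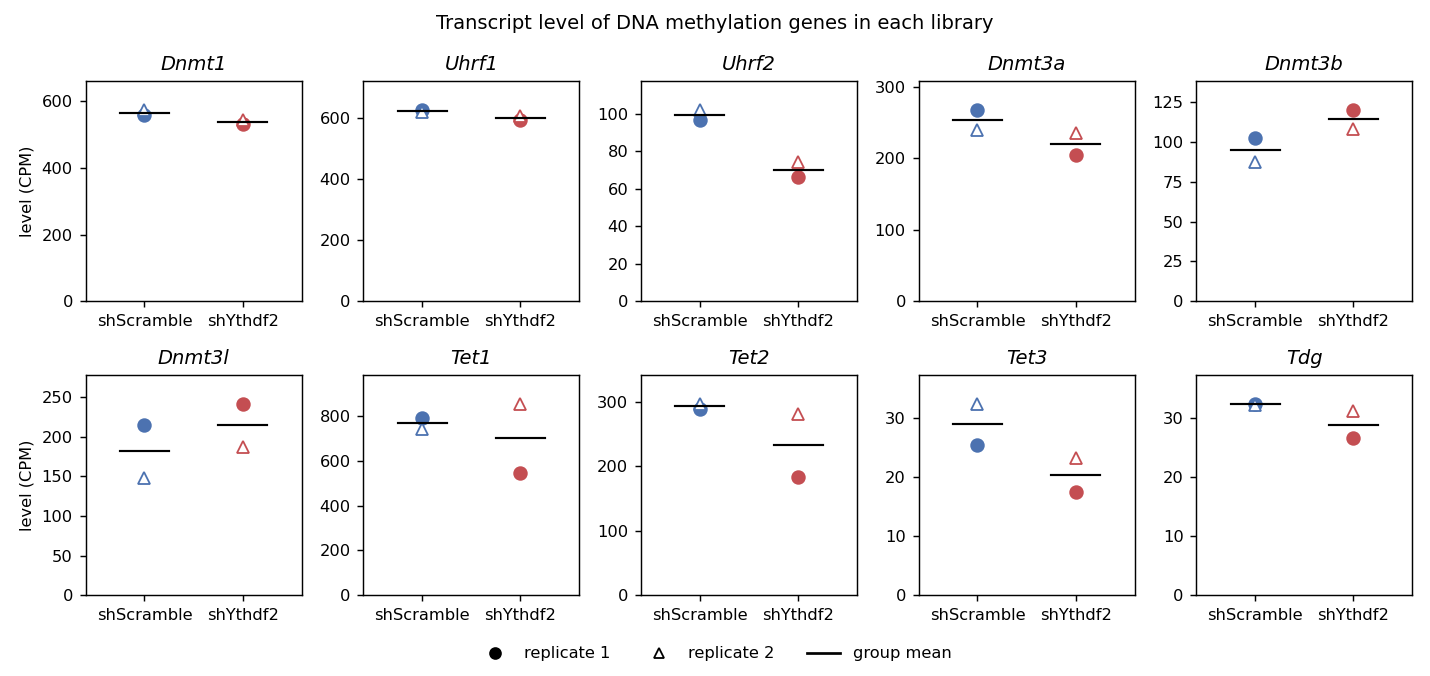
Transcript level of each of the 10 genes in CPM in every library, on axes that start at 0; filled circles are replicate 1, open triangles replicate 2 and bars the mean of 2 libraries. Uhrf2 shows both shYthdf2 libraries (66.3 and 74.1 CPM) below both shScramble libraries (96.7 and 102 CPM), and Tet1 and Tet2 show shYthdf2 replicate 1 apart from the other 3 libraries.

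Uhrf2 was the member that fell. UHRF2 is a RING-finger paralog of UHRF1 that binds methylated and hydroxymethylated cytosine and is known not to replace UHRF1 in maintenance. The gene lies on chromosome 19 from 30030430 to 30093726 on the plus strand (mm10), with 16 exon blocks that share no base with another counted gene. Its reads numbered 3481 and 3220 in shScramble and 2267 and 2651 in shYthdf2, or 96.7, 102, 66.3 and 74.1 CPM. Both shYthdf2 libraries were below both controls, and the gap between the groups was wider than the gap within either. The mean went from 99.4 ± 3.92 to 70.2 ± 5.49 CPM (SD, n = 2), which is 70.6% of control. The log2 fold change was -0.50 (SE 0.11, 95% interval -0.75 to -0.25, edgeR adjusted p = 0.040), and by p-value Uhrf2 ranked 547 of 18341 genes. The difference was -0.54 between the libraries numbered 1 and -0.46 between those numbered 2. Uhrf2 passed in every other setting that kept all 4 libraries. With each library left out in turn its fold change ranged from -0.58 to -0.43. It did not pass without shScramble replicate 2, which gave -0.46.

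Dnmt1 and Uhrf1, the maintenance pair, had the smallest differences between the groups. Dnmt1, the maintenance methyltransferase (chromosome 9, 20907206 to 20959888, minus strand), stood at 558 and 575 CPM in shScramble and at 533 and 542 CPM in shYthdf2. Uhrf1, the reader that brings DNMT1 to newly replicated DNA (chromosome 17, 56303337 to 56323486, plus strand), stood at 626 and 619 CPM in shScramble and at 594 and 607 CPM in shYthdf2. In both genes the shYthdf2 libraries were slightly below the controls without overlap, but neither passed. The log2 fold change of Dnmt1 was -0.07 (SE 0.10, 95% interval -0.29 to 0.14, edgeR adjusted p = 0.72). That of Uhrf1 was -0.05 (SE 0.10, 95% interval -0.27 to 0.17, edgeR adjusted p = 0.82). Over 13 other settings they stayed between -0.09 and -0.05 and between -0.07 and -0.04, with 0 settings past the threshold for either gene. The intervals leave room for a level between 81.6% and 111% of control for Dnmt1 and between 83.0% and 112% for Uhrf1. Within each library the ratio of Uhrf1 to Dnmt1 per length was 0.93 and 0.87 on the log2 scale in shScramble and 0.92 and 0.93 in shYthdf2, so the groups overlapped. The ratio of Uhrf2 to Uhrf1, added after the data were seen, was -2.66 and -2.56 in shScramble and -3.13 and -3.00 in shYthdf2. It reuses the Uhrf2 counts that passed above. The groups did not overlap (exact permutation test, two-sided p = 0.33, Benjamini-Hochberg adjusted p = 0.78 over 7 ratios compared). With 2 against 2 libraries this test can give no lower p than 0.33.

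**Figure D2:**
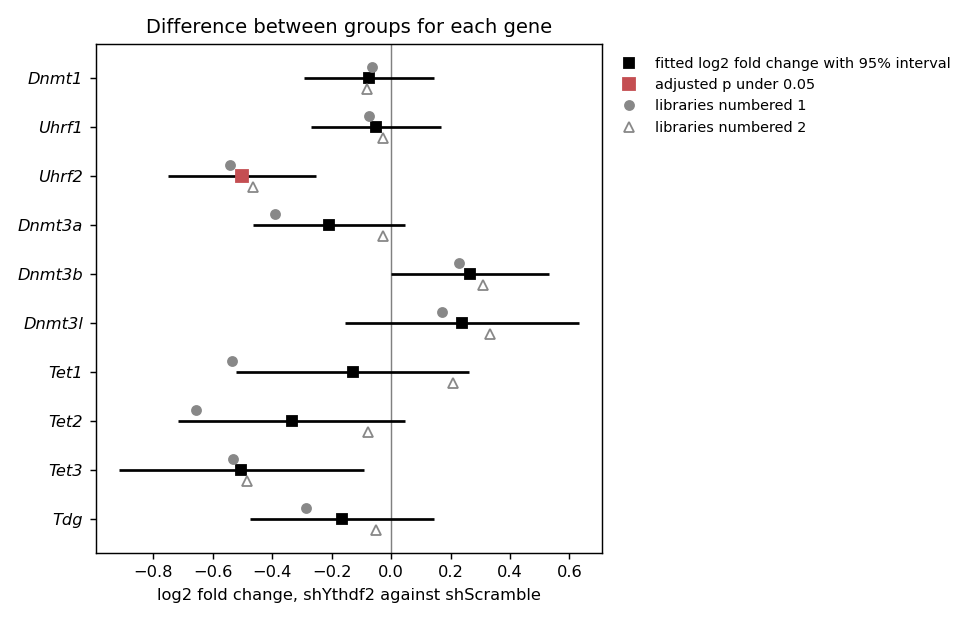
Fitted log2 fold change (shYthdf2 against shScramble) of each gene with its 95% interval, beside the difference between libraries numbered 1 (circles) and numbered 2 (triangles). Only Uhrf2, at -0.50, passed; the pairs for Tet1 lie on opposite sides of 0, at -0.54 and 0.21.

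None of the 3 de novo writers passed the test with all libraries included, and their fold changes differed in sign. Dnmt3a and Dnmt3b are the catalytic enzymes and Dnmt3l is their cofactor, best known from the germ line and abundant in ESCs. Dnmt3a (chromosome 12, 3801559 to 3914443, plus strand) stood at 268 and 240.2 CPM in shScramble and at 204 and 235 CPM in shYthdf2. Its shYthdf2 libraries were both lower, by a narrow margin for replicate 2. Its fold change on the log2 scale was -0.21 (SE 0.11, 95% interval -0.46 to 0.05, edgeR adjusted p = 0.34). Between the libraries numbered 1 the difference was -0.39, and between those numbered 2 it was -0.03.

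Dnmt3b (chromosome 2, 153649411 to 153687730, plus strand) was the only member with both shYthdf2 libraries above both controls. It stood at 103 and 87.5 CPM in shScramble and at 120.2 and 108 CPM in shYthdf2. Its log2 fold change was 0.27 (SE 0.12, 95% interval -0.0010 to 0.53, edgeR adjusted p = 0.24), and over 13 other settings it stayed positive, from 0.15 to 0.39, with 0 past the threshold. Within each library, the log2 ratio of Dnmt3b to Dnmt3a per length was 0.71 and 0.64 in shScramble and 1.33 and 0.97 in shYthdf2. The ratio was higher in both shYthdf2 libraries, by 0.48 on average (exact permutation test, two-sided p = 0.33, adjusted 0.78). Since this ratio is formed within a library, scaling between libraries does not enter it. Its sign in shScramble depends on the length used for each gene, as given further below, whereas the difference between the groups does not.

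Dnmt3l (chromosome 10, 78042287 to 78063622, plus strand) varied most among the writers. It stood at 215 and 148 CPM in shScramble and at 242 and 187 CPM in shYthdf2, and the groups overlapped. The shScramble replicates were 0.53 apart on the log2 scale, a gap exceeded by 2.66% of the 9537 genes tested with a mean of at least 10 CPM, where the median gap was 0.12. Over both groups the log2 fold change was 0.24 (SE 0.18, 95% interval -0.16 to 0.63, edgeR adjusted p = 0.49). Its size depended on single libraries. Without shScramble replicate 1 it was 0.53, without shYthdf2 replicate 2 it was 0.41, and without shScramble replicate 2 it was -0.0046. Each of these fits leaves 1 library in a group, which is assumed to vary like the other group, so no p-value is given for such a fit. The ratio of Dnmt3l to Dnmt3b was 2.18 and 1.88 in shScramble and 2.12 and 1.90 in shYthdf2 on the log2 scale. In each group the library numbered 1 had the higher ratio, and the groups overlapped.

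The oxidases had wide errors. TET1 and TET2 are the main TET enzymes of ESCs, and TET3 is best known from the oocyte and zygote. Tet1 (chromosome 10, 62804570 to 62887469, minus strand) stood at 794 and 742 CPM in shScramble and at 547 and 857 CPM in shYthdf2. The lowest and the highest of the 4 values were both shYthdf2 libraries, so the groups overlapped. These replicates were 0.65 apart on the log2 scale, a gap exceeded by 1.81% of the 9537 genes, where the median gap was 0.15. With all 4 libraries the log2 fold change was -0.13 (SE 0.18, 95% interval -0.52 to 0.26, edgeR adjusted p = 0.73). It was -0.49 without shYthdf2 replicate 2 and 0.16 without shYthdf2 replicate 1, each time with 1 shYthdf2 library left. Beside this split, the summed 2C-like markers were 79.9 CPM in shYthdf2 replicate 1 and 236 CPM in replicate 2, and their part in it was not tested.

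Tet2 (chromosome 3, 133463677 to 133545136, minus strand) repeated the split between the shYthdf2 replicates. It stood at 289 and 297 CPM in shScramble and at 183 and 281 CPM in shYthdf2. Both shYthdf2 libraries were lower, but replicate 2 lay close to the controls and the replicates were 0.62 apart on the log2 scale. Between the groups the log2 fold change was -0.34 (SE 0.17, 95% interval -0.72 to 0.05, edgeR adjusted p = 0.30). It was -0.68 without shYthdf2 replicate 2 and -0.06 without shYthdf2 replicate 1, each time with 1 shYthdf2 library left. Taken within each library, the ratio of Tet2 to Tet1 was -0.52 and -0.39 in shScramble and -0.65 and -0.67 in shYthdf2 on the log2 scale. In the ratio the shYthdf2 replicates lay close together and below both controls, with a mean difference of -0.20 (exact permutation test, two-sided p = 0.33, adjusted 0.78).

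Tet3 (chromosome 6, 83362373 to 83457208, minus strand) was the least abundant member. Its reads numbered 916, 1025, 601 and 832, or 25.4 and 32.5 CPM in shScramble and 17.6 and 23.2 CPM in shYthdf2. Both shYthdf2 libraries were lower, with replicate gaps of 0.36 in shScramble and 0.40 in shYthdf2 on the log2 scale. The log2 fold change, -0.50, was as large as that of Uhrf2, but its error was wider (SE 0.18, 95% interval -0.92 to -0.09, edgeR adjusted p = 0.16). The differences between libraries of the same number were close, at -0.53 and -0.48. The fold change of Tet3 was -0.67 without shScramble replicate 1 and -0.72 without shYthdf2 replicate 2. It was -0.32 without shScramble replicate 2 and also without shYthdf2 replicate 1. The summed oxidases against the summed catalytic writers Dnmt1, Dnmt3a and Dnmt3b, per length and on the log2 scale, gave -0.63 and -0.65 in shScramble and -1.17 and -0.55 in shYthdf2. Here too shYthdf2 replicate 1 stood apart and the groups overlapped.

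**Figure D3:**
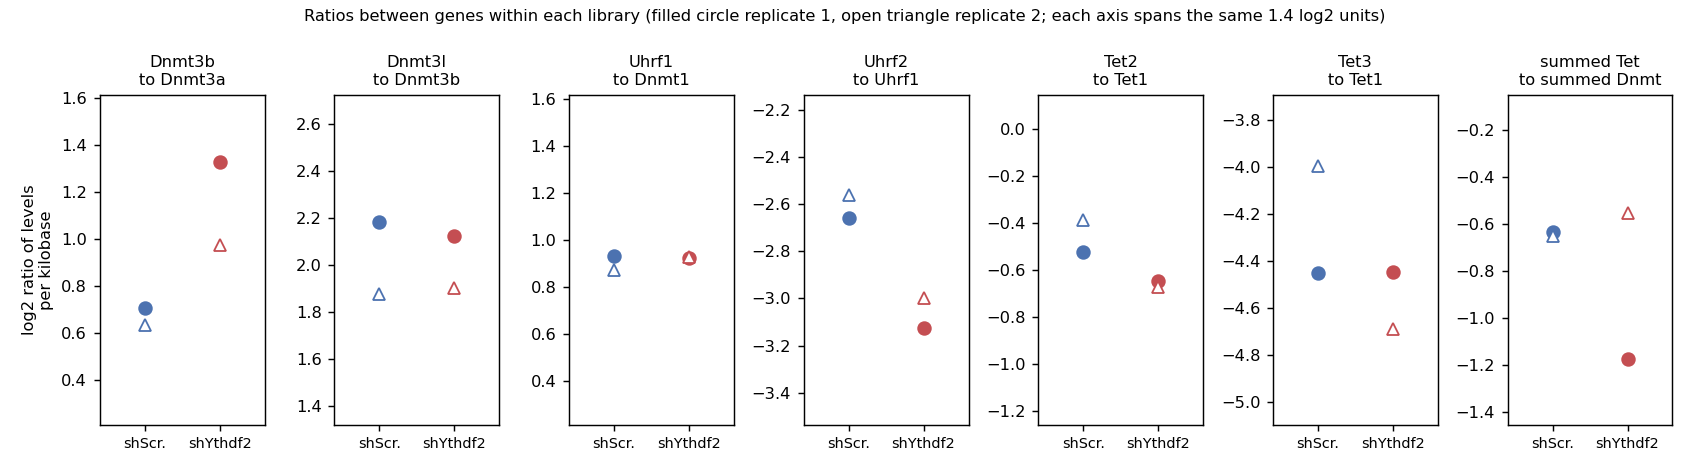
Log2 ratio of levels per kilobase for 7 pairs or sums of genes in each library, with every axis spanning the same number of log2 units; filled circles are replicate 1 and open triangles replicate 2. The groups do not overlap for Dnmt3b to Dnmt3a, Uhrf2 to Uhrf1 and Tet2 to Tet1, and they overlap for the other 4. Each ratio without overlap had a two-sided p of 0.33 by the exact permutation test. Of single genes tested, 51.8% did not overlap, and the share among ratios was not computed. The ratio of Uhrf2 to Uhrf1 was added after the data were seen.

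Tdg, the glycosylase that removes oxidized cytosine and is required for mouse development, lies on chromosome 10 from 82629814 to 82650799 on the plus strand. It stood at 32.5 and 32.3 CPM in shScramble and at 26.6 and 31.2 CPM in shYthdf2. Both shYthdf2 libraries were lower, and replicate 2 was near the controls. This gave a log2 fold change of -0.17 (SE 0.14, 95% interval -0.48 to 0.15, edgeR adjusted p = 0.55). The Tdg count is uncertain, because 33.1% of the 3353 windows of 150 bases along its longest coding transcript, the length of a read, also occurred in transcripts of other genes, most of them pseudogenes. The processed pseudogene Tdg-ps2 (chromosome 10, 42052558 to 42055453, minus strand) held 3346 and 3107 reads in shScramble and 3782 and 3845 in shYthdf2, more than Tdg itself with 1171, 1019, 911 and 1116. The log2 fold change of Tdg-ps2 was 0.19 (SE 0.10, edgeR adjusted p = 0.35). Reads that map to several places do not enter these counts, which can lower the count of a gene with shared sequence, and by how much was not tested.

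The other members were less exposed to shared sequence. For Dnmt3b 3.31% of such windows also occurred in Dnmt3c, the germline methyltransferase next to it, which the count table lists under the older name Dnmt3b-ps1 and which had 9 to 36 reads per library. For Uhrf1 1.92% occurred in the pseudogene Gm5648, with 137 to 186 reads per library, and the remaining 7 members shared 0 windows. Tet1 and Tdg each share exon bases with 1 other counted gene, Gm51805 with 0 to 1 reads and Glt8d2 with 1 to 5 reads per library, and strand was not used in the counting.

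Levels were compared between genes as CPM per kilobase of exon, using the deposited exon length. In shScramble, Uhrf1 was highest at 167 ± 1.38 (SD, n = 2), followed by Dnmt1 at 89.5 ± 1.90, Dnmt3l at 68.1 ± 17.6 and Tet1 at 41.8 ± 1.98. Tet2 at 30.5 ± 0.595, Uhrf2 at 27.4 ± 1.08 and Dnmt3b at 16.4 ± 1.85 came next, and Dnmt3a at 10.3 ± 0.793, Tdg at 9.14 ± 0.034 and Tet3 at 2.25 ± 0.39 were lowest. Over the 4 libraries, 5 neighbouring pairs in this order had overlapping ranges, namely Dnmt1 and Dnmt3l, Tet1 and Tet2, Tet2 and Uhrf2, Uhrf2 and Dnmt3b, and Dnmt3a and Tdg. The place of Dnmt3a depended on the length used. Its deposited length, the union of all annotated exons, was 24667 bases, whereas its longest coding transcript in GENCODE had 9685. Per kilobase of that transcript Dnmt3a stood at 26.2 ± 2.02 in shScramble, above Dnmt3b at 22.01 ± 2.47, although the ranges of the pair overlapped over the 4 libraries. On that scale Dnmt3l at 99.7 ± 25.8 moved past Dnmt1 at 96.4 ± 2.05, again with overlapping ranges.

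**Figure D4:**
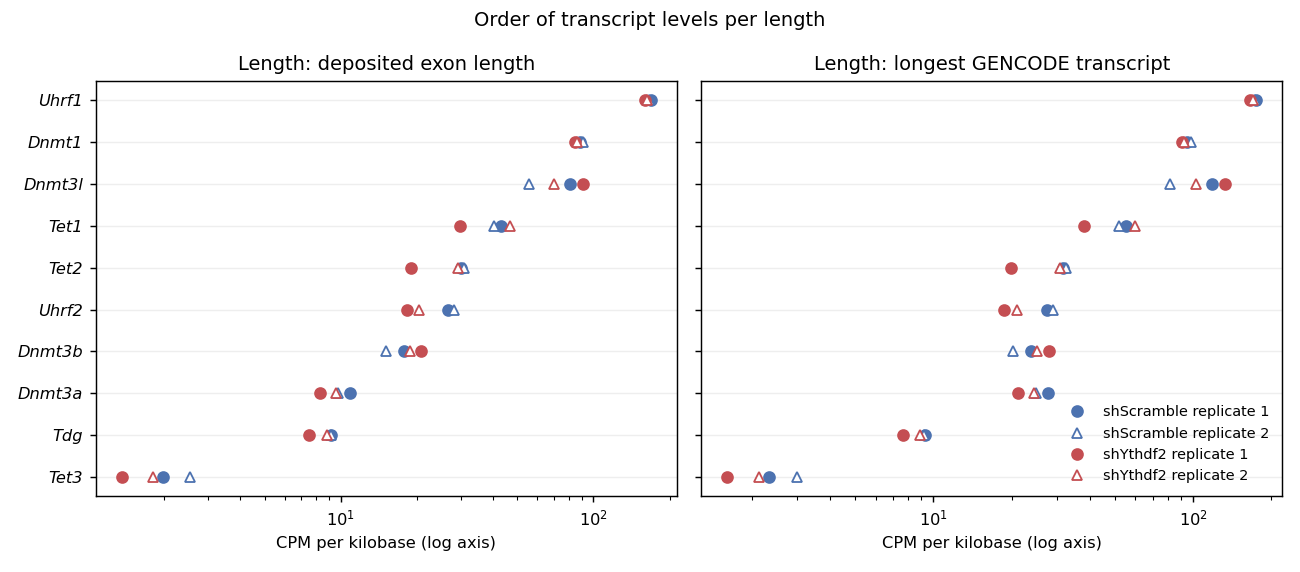
CPM per kilobase (log axis) of each gene in each of the 4 libraries, with the deposited exon length on the left and the longest GENCODE coding transcript on the right. Uhrf1 is highest and Tet3 lowest on both scales, and Dnmt3a lies below Dnmt3b on the left and overlaps it on the right.

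The letters GGAC, which form the core of the most common m6A consensus, were counted on the sense strand of each longest coding transcript, as a description of sequence alone. Uhrf2 held 18 in 3536 bases, or 5.09 per kilobase, above 71.3% of 21877 genes, whose median was 3.93. Uhrf1 with 5.58, Dnmt3l with 5.49, Tdg with 5.14 and Dnmt3a with 4.96 per kilobase were also above the median. Tet1 with 2.71 and Tet2 with 3.38 per kilobase were the only members below it.

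Genes around the pathway were read from 5 lists, written from general knowledge but with earlier results of these data known. Their counts stand beside 3.91% of all genes tested that passed in either direction and 20.8% with an unadjusted p under 0.05. Among 11 readers of methylated DNA and silencing cofactors, 1 rose and 0 fell (4 higher and 1 lower unadjusted, so 5 of 11 beside 20.8%), and the median log2 fold change was 0.07. The gene that rose was Mbd3, a subunit of the NuRD repressor complex, at 107 and 98.1 CPM in shScramble and 190.5 and 142 CPM in shYthdf2 (log2 fold change 0.69, SE 0.14, edgeR adjusted p = 0.032). The most abundant of this list, Trim28 (0.14, edgeR adjusted p = 0.57) and Zfp57 (0.07, edgeR adjusted p = 0.74), which together protect imprinted methylation, overlapped between the groups. Among 14 genes of base excision repair, which completes demethylation after TDG, 0 rose and 1 fell (3 higher and 2 lower unadjusted, so 5 of 14 beside 20.8%), with a median of -0.02. The gene that fell was the glycosylase Neil3, at 12.9 and 14.4 CPM in shScramble and 4.45 and 7.40 CPM in shYthdf2 (-1.20, SE 0.26, edgeR adjusted p = 0.037). Parp1 (-0.08, edgeR adjusted p = 0.69) and Apex1 (0.38, edgeR adjusted p = 0.17) were the most abundant and did not pass. Over 13 other settings the fold change of Apex1 ranged from 0.20 to 0.55.

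Among 16 regulators of the writers and oxidases, 0 rose and 1 fell (4 higher and 4 lower unadjusted, so 8 of 16 beside 20.8%), with a median of -0.12. The gene that fell was Prdm14, which is known to repress Dnmt3a, Dnmt3b and Dnmt3l in naive ESCs. It stood at 59.3 and 64.7 CPM in shScramble and at 46.0 and 41.0 CPM in shYthdf2 (-0.51, SE 0.12, edgeR adjusted p = 0.049). It did not pass without shScramble replicate 2 (-0.45) or by limma-voom (adjusted p = 0.054). Hells, a chromatin remodeler needed for methylation (-0.32, edgeR adjusted p = 0.12), and Usp7, a deubiquitinase that binds DNMT1 and UHRF1 (-0.23, edgeR adjusted p = 0.22), were lower in both shYthdf2 libraries and did not pass. Over 13 other settings the fold change of Hells ranged from -0.39 to -0.26. Cxxc4, named here after its value was seen, had the widest difference of any listed gene, 2.74, from under 0.1 CPM in both controls, and did not pass (edgeR adjusted p = 0.092). Among 14 genes that supply the methyl donor and TET cofactors, 1 rose and 0 fell (2 higher and 4 lower unadjusted, so 6 of 14 beside 20.8%), with a median of 0.02. The gene that rose was Tdh, the threonine dehydrogenase on which mouse ESCs depend, at 149 and 139 CPM in shScramble and 227 and 195 CPM in shYthdf2 (0.55, SE 0.11, edgeR adjusted p = 0.032). Without shScramble replicate 2 it did not pass (0.50). Mat2a (0.11, edgeR adjusted p = 0.66) and Idh1 (-0.03, edgeR adjusted p = 0.90) overlapped between the groups.

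Germline genes that promoter methylation is known to silence had mostly negative fold changes. Of 17 genes listed, 16 were tested, all of them germline genes, and 12 of these were below 0. The only trophoblast gene of the list, Elf5, had too few reads to be tested. At an adjusted p under 0.05, 5 of 16 fell and 0 rose, against 1.49% of all genes that fell. At an unadjusted p under 0.05, 9 were lower and 0 higher, against 9.8% of all genes lower. By DESeq2, 5 were lower and 0 higher, where 602 of 15750 genes with an adjusted p were lower. The median log2 fold change was -0.59, against 0.0019 over all genes tested, and without each library in turn it ranged from -0.86 to -0.38. The count of genes that fell was 9 without shScramble replicate 2, 9 without shYthdf2 replicate 1, and 4 and 6 without the other libraries. For 9 of the 16 the groups did not overlap, all lower, where 25.5% of all genes tested were lower without overlap and 51.8% did not overlap in either direction. The list was chosen with earlier results of these data known and no test of it as a set was made.

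The 5 that fell act in the germ line. Piwil2, a piRNA-binding protein, stood at 44.4 and 38.1 CPM in shScramble and at 23.3 and 17.6 CPM in shYthdf2 (-1.01, SE 0.17, edgeR adjusted p = 0.015). Mov10l1, its helicase partner, went from 30.0 and 29.8 to 16.6 and 16.2 CPM (-0.87, SE 0.14, edgeR adjusted p = 0.015). Mael, which acts in transposon silencing, went from 48.0 and 55.0 to 31.6 and 28.8 CPM (-0.77, SE 0.13, edgeR adjusted p = 0.016). In each of these the 2 groups were separated by more than the gap within either. Brdt, a testis bromodomain protein (-1.23, SE 0.26, edgeR adjusted p = 0.035), and Sycp1, of the synaptonemal complex (-0.78, SE 0.18, edgeR adjusted p = 0.048), were lower in both shYthdf2 libraries with a wider spread. Without shScramble replicate 1 neither passed (Brdt -0.90 and Sycp1 -0.55), and by limma-voom Sycp1 did not (adjusted p = 0.0503). Dazl, the most abundant of the list and a germline RNA-binding protein, stood at 393 and 279.8 CPM in shScramble and 277 and 151 CPM in shYthdf2 and did not pass (-0.65, edgeR adjusted p = 0.17). Over 13 other settings its fold change ranged from -1.16, without shYthdf2 replicate 1, to -0.28. Rpl10l, the next most abundant, was at 0.19 (edgeR adjusted p = 0.42). Whether the DNA methylation of these promoters differed was not measured in these libraries.

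**Figure D5:**
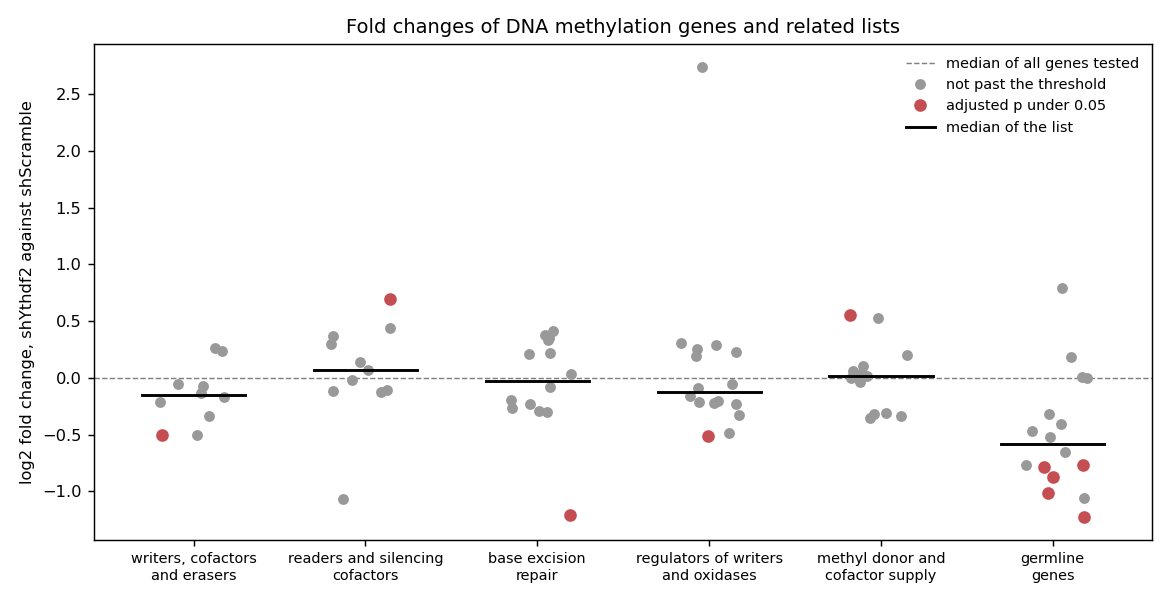
Log2 fold change (shYthdf2 against shScramble) of each tested gene, by list, with the list median as a bar and the median of all genes tested, 0.0019, as a dashed line; red points passed at an adjusted p under 0.05. The medians are -0.15 for the writers, cofactors and erasers, between -0.12 and 0.07 for 4 of the related lists, and -0.59 for the germline genes.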

How the data were processed

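Gene-level raw counts were deposited by the authors in a single table, unnormalized and with replicates kept apart. Per the file headers, reads were counted with featureCounts (2.0.3) over RefSeq exons of mm10, as single reads rather than pairs and without strand although the libraries were stranded. By the defaults of that tool, reads mapping to several places or genes were left out. The submitters' processing notes name fastp (0.19.4), HISAT2 (2.2.1) and DESeq2 (1.40.2). All 4 count columns were used and 0 were left aside.

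Counts were tested with edgeR (4.0.16, limma 3.58.1, R 4.3.3), using TMM scaling, filterByExpr (minimum count 10, total 15), the quasi-likelihood F test, two-sided, no covariate, and Benjamini-Hochberg adjustment over 18341 genes. CPM values are TMM-scaled, and 95% intervals come from the same fit. DESeq2 (1.42.0) was an alternative. Totals were 31113006 to 36422510 reads, so that 3 reads, the limit for a count of 0, equal 0.082 to 0.096 CPM before TMM scaling, for counting error only. The fit was tested on simulated data, where most changes of 0.5 on the log2 scale were missed and some calls were false.

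The members and gene lists were chosen with earlier results of these data known. The genes named are the 10 members and Ythdf2, and of each list the genes at an adjusted p under 0.05 and the 2 with the highest mean CPM. Markers are named only beside a result, and the ratio of Uhrf2 to Uhrf1 and the GENCODE lengths were added after seeing the data. Genes were not ranked by likeness to a member, since 4 libraries are too few. Frames were translated and aligned with Biopython (1.88).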

Additional observations from a re-analysis of the deposited data

How the results depend on the processing

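The 10 member fold changes were recomputed under 13 other settings (RLE, upper quartile and library-total scaling, no filter, a filter at a mean of 1 CPM, halved counts, DESeq2, limma-voom, a replicate block and each library left out). Of the 143 values for the members and Ythdf2, 132 kept their direction and their side of the threshold, 8 came to pass, 1 (Uhrf2 without shScramble replicate 2) no longer passed and 2 changed sign. The sign changed for Dnmt3l, which ranged from -0.0046 to 0.53 with a library left out, and for Tet1, which ranged from -0.49 to 0.16. Some of the values that came to pass were of Dnmt3l and Tet1 with a library left out. The rest were of Tet2 and Tet3, with a library left out or with the replicate block. With a library left out, 0 to 1 members were higher and 0 to 4 lower, 534 to 1175 of all genes were higher and 300.0 to 1113 lower, and 1 to 7 genes of the pathway lists were higher and 6 to 13 lower. These fits leave a group with 1 library, which is assumed to vary like the other group. Without the filter, 1095 genes were higher and 843 lower, and 6 and 11 of the pathway lists. DESeq2 called 800.0 higher and 602 lower, and 4 of the pathway lists higher. The replicate numbers are shared by the groups, but the labels do not say that they pair samples, and the deviations of libraries numbered 1 correlated at r = 0.225 over 18341 genes, a description with no p. With the number as a replicate block, 3 members were lower, Uhrf2, Tet2 (-0.37) and Tet3 (-0.51), as were 1674 of all genes and 19 of the pathway lists, and 1851 and 11 were higher. The cause of these shifts was not tested. Every member had 601 to 30653 reads per library, and the precision rests on 2 libraries a group.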
